A study of Mus musculus with 9 samples.

Results

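The genes described here encode the proteins of the cytosolic ribosome. They were chosen by symbol (Rpl or Rps with a number, the stalk genes Rplp0, Rplp1 and Rplp2, and Rpsa, without the Rps6k kinases) and by a mean of at least 20 read counts over 9 libraries. Where a symbol had several transcripts, only its most counted one was used. Of 20418 gene symbols, 82 met the rule: 43 of the large subunit, 31 of the small subunit, 3 of the stalk and 5 paralogs of other members. Just inside the minimum lay Rpl39l with a mean of 39.3 counts and Rpl17 with 210 counts, and just outside it lay Rpl10l with 8.56 and Rpl3l with 0.67 counts. Of the measured values, the rule itself uses only the mean count over all libraries. No member shared identical counts with another symbol.

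The series asked how CD8+ T cells respond to 2 related cytokines at low and high dose. The cells came from spleens of female C57BL/6 mice aged 6 weeks, and all groups share this strain, sex, tissue and cell type. Treated groups received interleukin-15 (IL-15) or interleukin-2 (IL-2) at 500 nM or 1 nM, with RNA taken at 24 h or 4 h, and 1 group was untreated. Each of these 9 groups is 1 library made from a pool of 3 identically treated samples, so no condition was repeated. P-values therefore rest on the spread left over once cytokine, dose and time are fitted together, and may reflect technical as well as biological spread. Where the effect of 1 factor depends on another and the model has no term for this, that dependence also counts as spread. No untreated library is labelled 4 h or 24 h, so time with cytokine and time in culture cannot be told apart.

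Each ribosome carries 1 copy of nearly every ribosomal protein, and the stalk carries extra copies of the proteins encoded by Rplp1 and Rplp2. The small subunit reads the mRNA, the large subunit forms peptide bonds, and the stalk recruits elongation factors. Messenger RNAs for ribosomal proteins begin with a run of pyrimidines, the 5′ terminal oligopyrimidine (TOP) motif, through which the kinase complex mTORC1 and the RNA-binding protein LARP1 control their translation and stability. Growth signals raise ribosome production when T cells prepare to divide.

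Sequences around the transcription start are shown because the pyrimidine run is the feature these mRNAs are known for, and the choice of members did not use it. Each line runs 5′ to 3′ on the strand that has the sequence of the mRNA (the mRNA strand). It covers 10 bases before and 20 bases after a start in RefSeq on build GRCm38.p6. Capitals mark any run of pyrimidines that begins with C and holds CTTTC or CTTTT. The first 4 belong to genes lower at 500 nM and 24 h, the next 4 hold a run but did not pass that test, and the last 4, which include 2 of the largest falls and the paralogs Rps27l and Rpl22l1, hold no such run in this window. Rps27l is shown at the first of 2 listed starts.
Rpl38, chr11:114668570-114668599, plus strand: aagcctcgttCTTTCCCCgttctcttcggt
Rps27, chr3:90213629-90213658, minus strand: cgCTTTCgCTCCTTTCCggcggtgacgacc
Rplp2, chr7:141447641-141447670, plus strand: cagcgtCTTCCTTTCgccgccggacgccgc
Rps10, chr17:27635225-27635254, minus strand: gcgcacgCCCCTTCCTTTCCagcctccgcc
Rps6, chr4:86857348-86857377, minus strand: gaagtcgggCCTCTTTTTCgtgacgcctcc
Rpl28, chr7:4792955-4792984, plus strand: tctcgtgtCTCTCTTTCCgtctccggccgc
Rpl15, chr14:18270967-18270996, minus strand: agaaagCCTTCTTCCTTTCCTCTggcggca
Rpl35, chr2:39005112-39005141, minus strand: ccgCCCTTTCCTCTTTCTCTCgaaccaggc
Rps28, chr17:33824543-33824572, minus strand: cgcgtgcggtctcgcgagagcgaaagtgag
Rpl37a, chr1:72711250-72711279, plus strand: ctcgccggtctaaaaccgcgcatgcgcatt
Rps27l, chr9:66946076-66946105, plus strand: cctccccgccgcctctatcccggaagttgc
Rpl22l1, chr3:28805498-28805527, plus strand: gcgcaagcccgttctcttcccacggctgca

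CTTTC or CTTTT on the mRNA strand lay within 30 bases of a start in 27 of the 60 members with a promoter in the table (45.0%). On the other strand this was so for 10 (16.7%). Over all 27025 symbols of the table the shares were 15.5% on the mRNA strand and 15.7% on the other. Over the tested genes with a promoter the share was 13.1% on the mRNA strand. The 2 motifs share 4 letters and can overlap. Among members lower at 500 nM and 24 h, 11 of 24 held the motif (45.8%), and among the rest 16 of 36 (44.4%). The difference between these shares was not tested, and 22 members had no promoter in the table.

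Library depth ran between 27158143 and 48799961 counts, with 1 transcript per symbol. All 82 members passed edgeR's filter on low counts, which kept 13479 genes. The 10 T cell markers were read in every library and at 24 h summed to 5325 CPM (counts scaled to the library total) with IL-15 and 4980.0 CPM with IL-2 at 500 nM, against 6242 CPM with IL-15 and 6105 CPM with IL-2 at 1 nM, and 6240 CPM untreated. The T cell list was split at 24 h. Cd8a, Thy1 and Zap70 were higher at 500 nM with both cytokines, and Cd3e, Cd3d, Cd3g, Cd8b1, Cd5 and Lck were lower. Lat was lower with IL-15 and higher with IL-2. Summed markers of every other spleen cell type listed were lower at 500 nM than at 1 nM at 24 h, without overlap. At 24 h the 8 B cell markers summed to 202 to 256.2 CPM at 500 nM, 720.2 to 730.1 CPM at 1 nM and 657.5 CPM untreated, with Pax5 at 0 in 6 of 9 libraries. The 8 myeloid markers summed to 7.77 to 12.0 CPM at 500 nM, 244 to 381.5 CPM at 1 nM and 391.9 CPM untreated, with Itgam at 0 in 5 of 9 libraries. The 4 NK cell markers summed to 14.9 to 18.1 CPM at 500 nM, 68.8 to 83.9 CPM at 1 nM and 178.9 CPM untreated. Most of these sums came from Tyrobp and Fcer1g. Ncr1 was near 0 and overlapped between doses at 24 h, with 0.596 CPM (IL-15) and 0.139 (IL-2) at 500 nM against 0.183 (IL-15) and 0.512 (IL-2) at 1 nM. The 4 dendritic cell markers summed to 7.84 to 10.2 CPM at 500 nM, 25.5 to 28.0 CPM at 1 nM and 101.8 CPM untreated. The 4 erythroid markers summed to 4.199 to 5.37 CPM at 500 nM, 27.4 to 34.6 CPM at 1 nM and 86.1 CPM untreated. Over both times, B, myeloid and NK cell sums did not overlap between doses, while dendritic (7.84 to 29.4 CPM at 500 nM, 25.5 to 46.0 CPM at 1 nM) and erythroid sums (4.199 to 42.6 CPM at 500 nM, 27.4 to 59.7 CPM at 1 nM) did. The part of these cells in the dose results below was not tested.

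Ribosomal protein mRNA made up a large part of every library, and the smallest part at 500 nM and 24 h. Members took 7.47% of all counts with IL-15 and 7.46% with IL-2 at 500 nM and 24 h, against 11.4% with IL-15 and 11.3% with IL-2 at 1 nM and 24 h. At 4 h they took 10.03% with IL-15 and 10.6% with IL-2 at 500 nM, against 14.7% with IL-15 and 12.3% with IL-2 at 1 nM, and they took 12.2% in untreated cells. Both cytokines gave nearly the same share at 24 h at each dose, and the share differed most between cytokines at 1 nM and 4 h. With Wilson 95% intervals from 7.46% to 7.47% and from 7.45% to 7.47% the 500 nM and 24 h shares overlapped, and such intervals cover counting error only. Of the 20 genes with the most counts, 4 with IL-15 and 5 with IL-2 were members at 500 nM and 24 h, against 9 with each cytokine at 1 nM and 24 h and 8 untreated. Large subunit and stalk genes took 4.73% with IL-15 and 4.72% with IL-2 at the high dose and 24 h, against 7.15% and 6.98% at the low dose, and small subunit genes 2.72% with each, against 4.29% and 4.35%. In bulk samples, fewer cells of a type and less RNA per cell cannot be told apart, and a share also falls when other mRNAs increase.

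**Figure D1:**
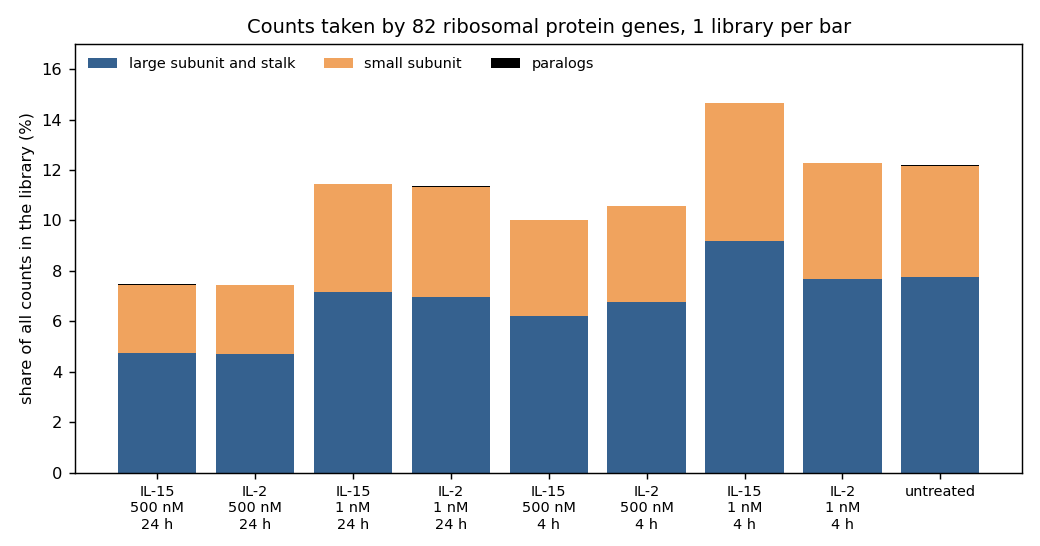
Share of all counts (%, y axis) taken by the 82 ribosomal protein genes in each of 9 libraries (x axis), 1 library per bar, split into large subunit with stalk, small subunit and paralogs. The 2 libraries at 500 nM and 24 h reach 7.47% and 7.46%, below the other 7.

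Levels per length differed widely between members. On the deposited RPKM scale (reads scaled by exon length and library total), the highest means over 9 libraries included those of Rplp1 (NM_018853, chromosome 9 of mm8) at 7885 RPKM, Rpl8 (NM_012053, chromosome 15) at 7127 RPKM, Rpl4 (NM_024212, chromosome 9) at 6939 RPKM and Rpl13a (NM_009438, chromosome 7) at 5575 RPKM. The proteins of Rpl8 and Rpl4 lie near the catalytic centre and the exit tunnel of the large subunit. The lowest means were those of Rpl39l at 0.934 RPKM, Rpl17 at 5.25 RPKM, Rpl7l1 at 10.5 RPKM, Rps4y2 at 15.1 RPKM and Rpl15 at 18.4 RPKM. Among these, Rpl17 and Rpl15 are core proteins of the large subunit, and the other 3 are paralogs. The median member lay at 439 RPKM.

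Part of every member's sequence also occurs elsewhere among annotated transcripts. In GENCODE M21 transcripts, each of the 82 members shared at least 1 stretch of 32 bases with another gene and with an annotated pseudogene. The median member shared stretches with 14.5 pseudogenes, and Rpl7a with 159. The share of a member's 32-base stretches found in no other gene had a median of 38.2%, between 1.09% for Rpl35 and 97.9%. These shares refer to the matched GENCODE transcript, which for some members is longer than the one counted. That of Rpl35 has 915 stretches against 452 exon bases. How reads that fit several places were counted is not given in the sources used here, so all levels per gene are uncertain in this respect. Across the 82 members, Spearman's rho of this share with the mean RPKM was 0.173, and with the dose difference at 24 h it was -0.068, as a description across genes of the same libraries. Of 29 members with under 25% of stretches of their own, 7 were lower at 500 nM and 24 h, of 24 with 25% to 50% 10 were, of 20 with 50% to 75% 13 were, and of 9 with at least 75% 1 was.

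The main comparison asked what 500 nM did relative to 1 nM at 24 h, with both cytokines. Members of both subunits and the stalk were mostly lower at 500 nM, and 1 paralog was higher. At a false discovery rate of 0.05 over all genes (edgeR quasi-likelihood, Benjamini-Hochberg), 31 of 82 members were lower and 1 was higher, where 15.6% of all 13479 genes were called lower and 15.6% higher. The lower members were 14 of 43 large subunit genes, 14 of 31 small subunit genes and all 3 stalk genes. The median log2 fold change was -0.45 over members, -0.41 for the large subunit, -0.55 for the small subunit and -0.70 for the stalk, against -0.04 over all genes. DESeq2 called 39 members and limma-voom 35, given without the share of all genes that either called. Leaving out a library moved the number of lower members to 9 (IL-15, 500 nM, 24 h), 12 (IL-2, 500 nM, 24 h), 20 (IL-15, 1 nM, 24 h) or 18 (IL-2, 1 nM, 24 h), of which 8, 12, 20 and 16 were among the 31.

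Both cytokines showed the fall. Over all members 61 were lower at 500 nM with both cytokines at 24 h, 8 higher with both and 13 in opposite directions. Pair by pair, 81.7% of members and 49.6% of all genes were lower with IL-15, and 82.9% and 49.1% with IL-2. The 31 called members were all lower with both, but they were picked from these same libraries, so this adds no support. The median difference (log2 CPM) at 24 h was -0.47 with IL-15 and -0.47 with IL-2. Single members could differ: for 11 the 2 differences lay over 1 log2 unit apart, as for Rpl38 (-1.01 with IL-15 and -2.62 with IL-2) and Rps21 (-1.03 with IL-15 and -2.25 with IL-2). Spearman's rho between the IL-15 and the IL-2 differences, which share no library, was 0.64 and Pearson's r 0.40 over 82 members, given as a description because members share their libraries. Both 500 nM libraries lay below both 1 nM libraries at 24 h for 58 members, where 35.3% of all genes did so, and below all other 6 treated libraries for 47 members, against 18% of all genes. The library with IL-15 at 500 nM and 24 h was the lowest of 9 for 34 members and the one with IL-2 for 22, which was not counted over all genes.

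**Figure D2:**
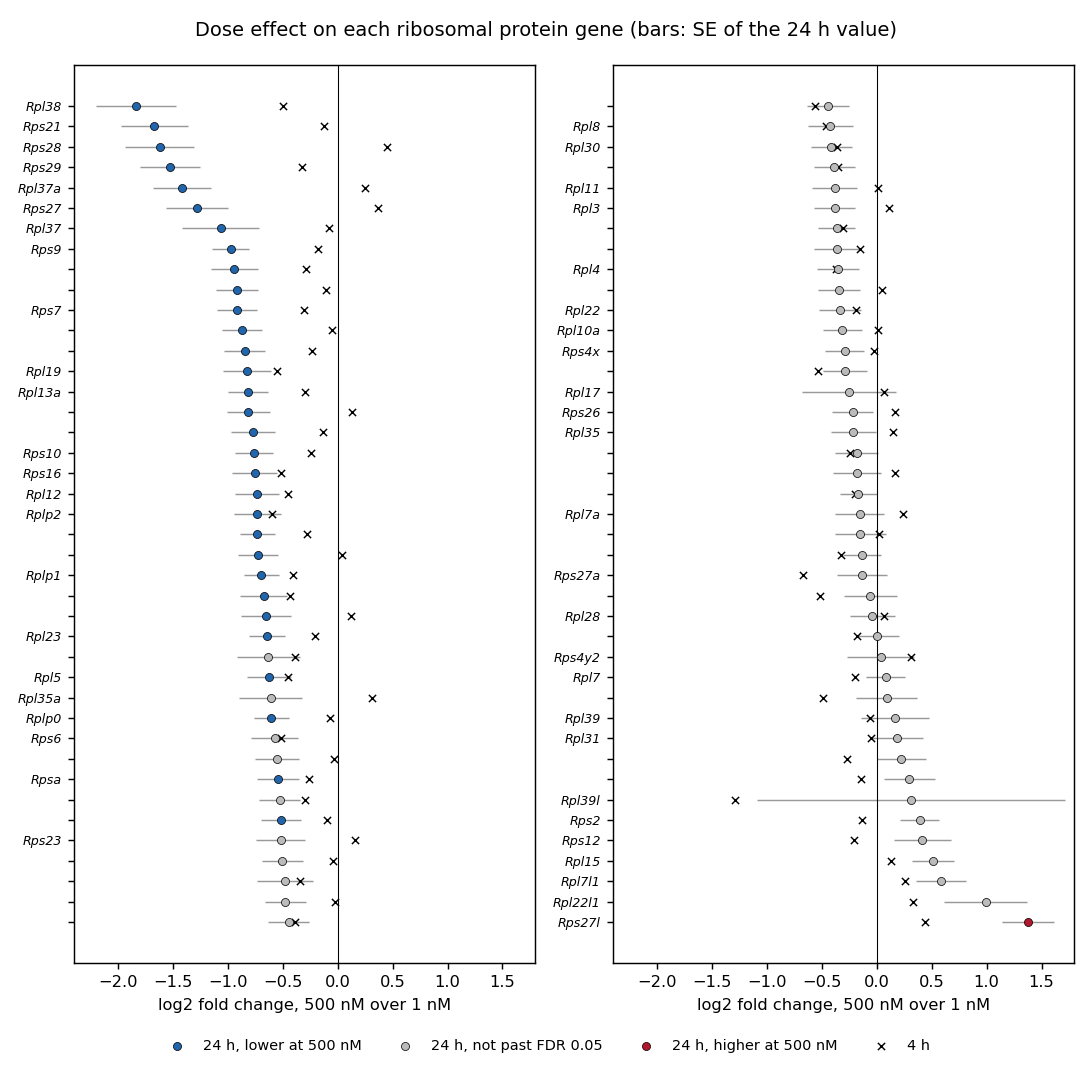
Log2 fold change of 500 nM over 1 nM (x axis) for each of 82 ribosomal protein genes (y axis, with names for members described in the text), at 24 h as circles with bars of 1 standard error and at 4 h as crosses. At 24 h 31 circles are coloured as lower and 1, Rps27l, as higher, and 0 members passed the test at 4 h.

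The stalk genes fell together at 24 h and were among the most abundant members. Rplp1 measured 4355 RPKM with IL-15 and 4974 with IL-2 at 500 nM and 24 h, against 7484 and 7590.3 RPKM at 1 nM and 24 h in the same order. At 4 h it measured 7304 and 7866 RPKM at 500 nM, against 9880.5 and 10264 at 1 nM, and 11250.0 RPKM untreated. The 4 libraries at 24 h do not overlap by dose, and every treated library lay below the untreated one. The fold change of Rplp1 at 24 h was -0.70 ± 0.16 (log2, SE; edgeR adjusted p = 0.00587).

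Rplp2 (NM_026020, chromosome 7), its partner in the stalk dimers, measured 2685 RPKM with IL-15 and 2913.5 with IL-2 at 500 nM and 24 h, against 4238 with IL-15 and 5059 with IL-2 at 1 nM and 24 h. At 4 h it measured 3685 RPKM with IL-15 and 4756 with IL-2 at 500 nM, against 7188 with IL-15 and 5443 with IL-2 at 1 nM, and 5714 RPKM untreated. At both times the 500 nM values lay below the 1 nM values, and its change at 24 h was -0.73 ± 0.21 (adjusted p = 0.0209 by edgeR). Rplp0 (NM_007475, chromosome 5), which anchors these dimers to the ribosome, measured 2372 RPKM with IL-15 and 2314 with IL-2 at 500 nM and 24 h, against 3574 with IL-15 and 3533.5 with IL-2 at 1 nM and 24 h, and 2685 RPKM untreated. Its change at 24 h was -0.60 ± 0.16 (edgeR adjusted p = 0.0116), and its 1 nM values at 24 h lay above the untreated one. At 4 h the doses overlapped for Rplp0. It then measured 3290 RPKM with IL-15 and 2829 with IL-2 at 500 nM, against 3100 with IL-15 and 3347 with IL-2 at 1 nM.

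The largest falls at 24 h were those of Rpl38, Rps21, Rps28, Rps29, Rpl37a and Rps27. Rpl38 (NM_001048057, chromosome 11), needed in mouse embryos to translate certain Hox mRNAs, measured 167 RPKM with IL-15 and 51.6 with IL-2 at 500 nM and 24 h, against 333 with IL-15 and 319 with IL-2 at 1 nM and 24 h. At 4 h Rpl38 measured 198 RPKM with IL-15 and 153 with IL-2 at 500 nM, against 419 with IL-15 and 140.4 with IL-2 at 1 nM, and 297 RPKM untreated. It fell by 1.84 ± 0.36 on the log2 scale at 24 h (edgeR adjusted p = 0.00224), and the doses overlapped at 4 h. Rps21 (NM_025587, chromosome 2) measured 735 RPKM with IL-15 and 317 with IL-2 at 500 nM and 24 h, against 1487 and 1525 RPKM at 1 nM and 24 h in the same order. At 4 h Rps21 measured 1559 and 1317.5 RPKM at 500 nM, against 2384 and 1003.5 at 1 nM, and 2229.8 RPKM untreated. Its lowest value was again that of IL-2 at 500 nM and 24 h, and its change at 24 h was -1.67 ± 0.31 (adjusted p = 0.00143 by edgeR).

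Rps28 (NM_016844, chromosome 17), which lies near the mRNA exit of the small subunit, measured 61.3 RPKM with IL-15 and 29.2 with IL-2 at 500 nM and 24 h, against 118 with IL-15 and 129 with IL-2 at 1 nM and 24 h. At 4 h Rps28 measured 265 RPKM with IL-15 and 129 with IL-2 at 500 nM, against 210.5 with IL-15 and 85.4 with IL-2 at 1 nM, and 187 RPKM untreated. The dose order was thus opposite at 4 h and 24 h within each cytokine. Rps27 (NM_027015, chromosome 3), a zinc finger protein of the small subunit, measured 32.2 RPKM with IL-15 and 12.9 with IL-2 at 500 nM and 24 h, against 80.4 with IL-15 and 29.96 with IL-2 at 1 nM and 24 h. At 4 h Rps27 measured 107 and 81.4 RPKM at 500 nM, against 86.6 and 62.6 at 1 nM, in the same order, and 55.0 RPKM untreated. Its dose order also turned between 4 h and 24 h with each cytokine, and at 24 h the IL-15 value at 500 nM lay above the IL-2 value at 1 nM.

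Rps29 (NM_009093, chromosome 12), a zinc-binding protein of the small subunit, measured 274 RPKM with IL-15 and 91.4 with IL-2 at 500 nM and 24 h, against 479 with IL-15 and 425 with IL-2 at 1 nM and 24 h, and 456 RPKM untreated. At 4 h Rps29 measured 506 and 266 RPKM at 500 nM, against 631 and 339.7 at 1 nM, in the same order. Within each cytokine and time Rps29 was lower at 500 nM. Rpl37a (NM_009084, chromosome 1), a zinc-binding protein of the large subunit, measured 83.1 RPKM with IL-15 and 53.8 with IL-2 at 500 nM and 24 h, against 148 with IL-15 and 204 with IL-2 at 1 nM and 24 h, and 78.5 RPKM untreated. At 4 h Rpl37a measured 182 and 106 RPKM at 500 nM, against 121 and 117 at 1 nM. At 24 h the untreated level of Rpl37a lay between its values with IL-15 and IL-2 at 500 nM and below both values at 1 nM. The changes at 24 h were -1.62 ± 0.31 for Rps28, -1.53 ± 0.27 for Rps29, -1.42 ± 0.27 for Rpl37a and -1.28 ± 0.28 for Rps27 (edgeR adjusted p = 0.00192, 0.00116, 0.00164 and 0.00447).

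**Figure D3:**
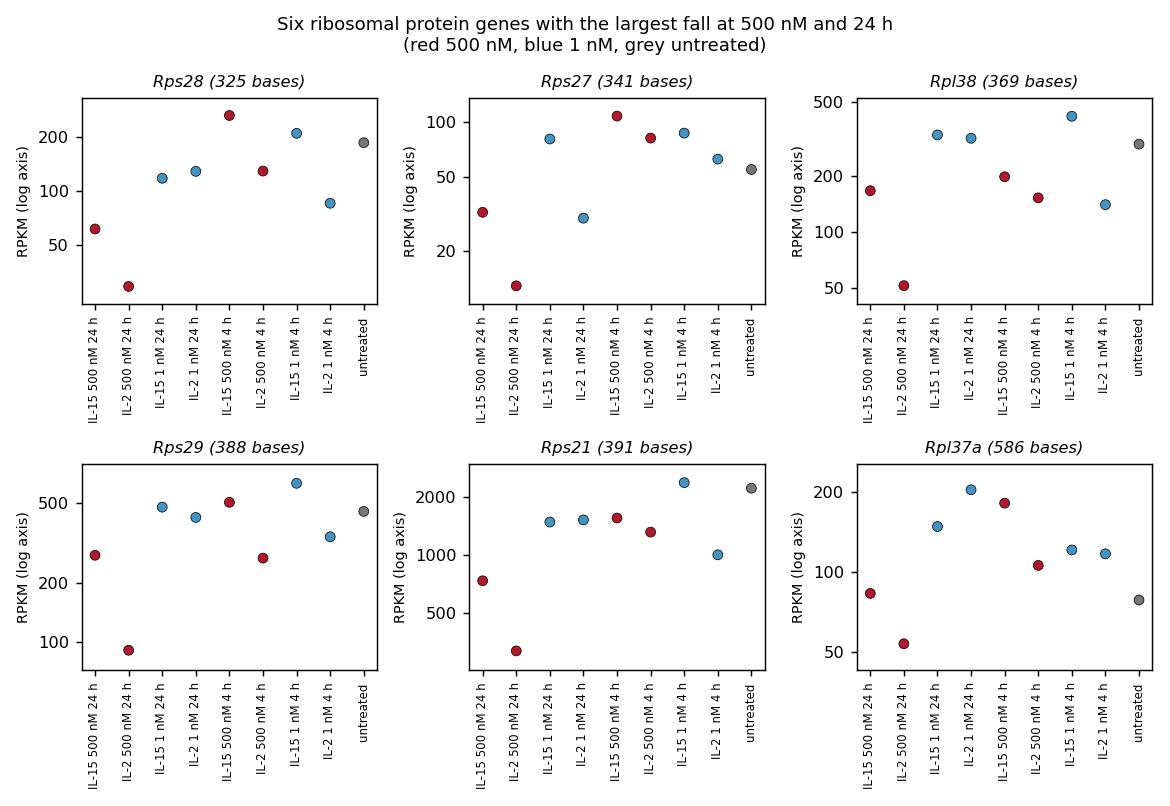
RPKM on a log axis (y axis) in each of 9 libraries (x axis) for the 6 ribosomal protein genes with the largest fall at 24 h, with exon length in bases over each panel. The library with IL-2 at 500 nM and 24 h is the lowest point in every panel, for example 29.2 RPKM for Rps28 and 53.8 RPKM for Rpl37a.

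Of these 6 genes, 5 have an exon length under 400 bases. The labels give a size selection of 220 to 400 bp for the library fragments. The 6 members under 400 bases, which also include Rpl39, had a median change of -1.57 at 24 h, against 0.26 for 26 other genes under 400 bases with a mean of at least 50 counts. Rpl39 itself stood at 0.17 ± 0.31 and did not pass (edgeR adjusted p = 0.736). Members of at least 400 and under 600 bases had a median of -0.41 against 0.26 for other genes of that length, those from 600 to under 1000 bases -0.39 against 0.22, and those from 1000 to under 2000 bases -0.56 against 0.12. In each of these length classes members lay below other genes. In the class of 2000 bases and over they did not, with a median of 0.09 for only 3 members against -0.05 for 7134 other genes. The shortest members differed between cytokines by amounts that varied from pair to pair, and 0 of them passed the cytokine test. Their median difference of IL-15 minus IL-2 (log2 CPM) was 1.35 for 500 nM at 24 h, 0.11 for 1 nM at 24 h, 0.41 for 500 nM at 4 h and 1.23 for 1 nM at 4 h. The other short genes had 0.28, -0.35, -0.08 and 0.43 in the same order. The part of fragment size selection in these differences was not tested.

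Past the 6 largest, the falls were smaller and spread over both subunits. Rps9 (NM_029767, chromosome 7), near the mRNA entry of the small subunit, measured 2973 RPKM with IL-15 and 3121 with IL-2 at 500 nM and 24 h, against 5604 with IL-15 and 6366 with IL-2 at 1 nM and 24 h, and 3779 RPKM untreated. Its change of -0.98 ± 0.17 had an edgeR adjusted p of 0.00112. Rpl5, which with Rpl11 and 5S rRNA forms a complex that can bind Mdm2, fell by 0.63 ± 0.20, and Rpl11 stood at -0.38 ± 0.21 (adjusted p = 0.0303 and 0.188 by edgeR). Rps6, the target of the S6 kinases, stood at -0.57 ± 0.22 and did not pass (adjusted p = 0.0631). Rpl37 was called at -1.07 ± 0.35, but the IL-15 pair differed by only -0.17 and the IL-2 pair by -2.00 (log2 CPM). Rpl15 (0.51 ± 0.19), Rps12 (0.41 ± 0.26) and Rps2 (0.39 ± 0.18) had positive values that did not pass the test.

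The size of the fall varied with abundance. Of 20 members with a mean of at least 1000 RPKM 13 were lower at 24 h, with a median change of -0.67. Of 42 members between 100 and 1000 RPKM 14 were lower, with a median of -0.46, and of 20 members under 100 RPKM 4 were lower, with a median of 0.06. All 5 paralogs fall in this last class, and its other 15 members had a median of -0.25, with 4 lower. Spearman's rho of mean RPKM with the change at 24 h was -0.42 over 82 members and -0.32 over the 77 without paralogs, a description across genes that share libraries. Among the steadiest members over the 8 treated libraries were Rpl10a (SD of log2 CPM 0.16) and Rpl31 (0.17). The most variable was Rpl39l, with few counts, followed by Rps27, Rps28, Rpl38, Rps21 and Rps29.

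All 5 paralogs had a positive value at 24 h, and 1, Rps27l, passed the test. Rps27l (NM_026467, chromosome 9), a paralog of Rps27 known in human cells as a p53 target, measured 153 RPKM with IL-15 and 163 with IL-2 at 500 nM and 24 h, against 45.9 with IL-15 and 78.1 with IL-2 at 1 nM and 24 h. At 4 h Rps27l measured 71.7 RPKM with IL-15 and 85.5 with IL-2 at 500 nM, against 57.9 with IL-15 and 57.1 with IL-2 at 1 nM, and 65.3 RPKM untreated. Its 2 highest libraries were those at 500 nM and 24 h, and it rose by 1.37 ± 0.23 at 24 h (edgeR adjusted p = 9.1e-04). The ratio of Rps27l to Rps27 (RPKM) was 4.75 with IL-15 and 12.7 with IL-2 at 500 nM and 24 h, against 0.57 with IL-15 and 2.61 with IL-2 at 1 nM and 24 h and 1.19 untreated. This ratio is uncertain, since only 1.27% of the 32-base stretches of Rps27 occur in no other gene. Rps27 is also short, at 341 bases, and had 221 counts with IL-2 at 500 nM and 24 h.

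Rpl22l1 (NM_026517, chromosome 3) is held down by its partner Rpl22, a protein that T cell development in mice requires. It measured 40.6 RPKM with IL-15 and 31.7 with IL-2 at 500 nM and 24 h, against 12.8 with IL-15 and 24.7 with IL-2 at 1 nM and 24 h, and 18.2 RPKM untreated. Its change of 0.99 ± 0.38 did not pass (edgeR adjusted p = 0.0646), and Rpl22 (NM_009079, chromosome 4) stood at -0.34 ± 0.19 (adjusted p = 0.206). At 24 h the doses did not overlap for Rpl22l1, but at 4 h they did, with 53.1 RPKM (IL-15) and 35.7 (IL-2) at 500 nM, against 24.1 (IL-15) and 51.6 (IL-2) at 1 nM. Rpl7l1, a relative of Rpl7, stood at 0.59 ± 0.23 (adjusted p = 0.0716), and Rpl7 at 0.08 ± 0.18. Rps4y2, whose transcript has a RefSeq identifier of a non-coding RNA (NR_003634), stood at 0.04 ± 0.31, and Rps4x at -0.29 ± 0.18. Rpl39l, a paralog of Rpl39 known from testis, stood at 0.31 ± 1.40, and its few counts leave its direction undetermined.

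**Figure D4:**
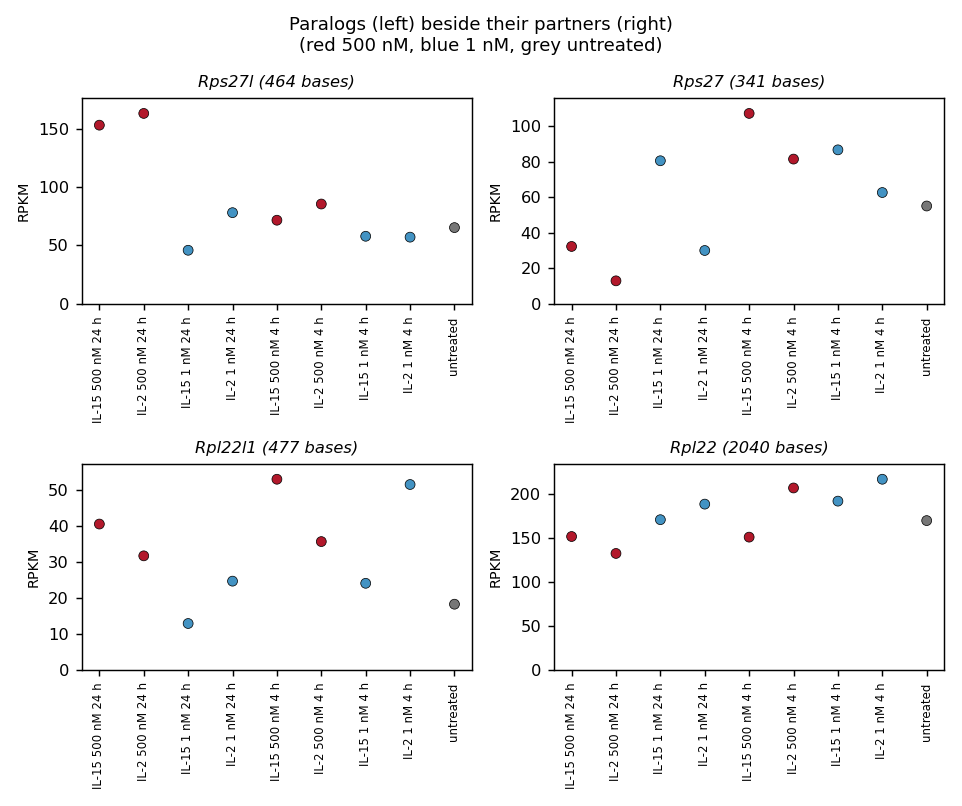
RPKM (y axis, starting at 0) of the paralogs Rps27l and Rpl22l1, on the left, and of Rps27 and Rpl22, on the right, in each of 9 libraries (x axis). Rps27l is highest at 500 nM and 24 h, with 153 and 163 RPKM, where Rps27 is at 32.2 and 12.9 RPKM.

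At 4 h no dose difference of a single member was detected. No member passed edgeR's test (0 of 82, with 11 at an unadjusted p under 0.05, and 1 by DESeq2 and 0 by limma-voom), where 4.63% of all genes were lower and 5.42% higher. The median was -0.18, against -0.02 over all genes. It was -0.04 without the 1 nM IL-15 library of that time, and without the 1 nM IL-2 library 7 members were called lower. Without the 500 nM IL-2 library 1 was called lower. With IL-15 the median difference was -0.25 and with IL-2 -0.07 (log2 CPM), and Spearman's rho between the 2 sets of differences was -0.02 over 82 members. At 4 h both 500 nM libraries lay below both 1 nM libraries for 29 members, where 25.5% of all genes did so. The member closest to a call was Rps27a, a fusion of ubiquitin and a small subunit protein, at -0.68 ± 0.23 (edgeR adjusted p = 0.0908).

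Whether the dose effect differed between times was tested with a dose by time term. The 4 members that passed were all lower. Their share of 4.88% is near the background, since 4.76% of all genes had a lower and 4.06% a higher interaction. They were Rps28 at -2.07 ± 0.43, Rpl37a at -1.67 ± 0.37, Rps27 at -1.64 ± 0.39 and Rps21 at -1.54 ± 0.43 (edgeR adjusted p = 0.0143, 0.0184, 0.0248 and 0.0432). At 4 h these genes had no dose effect past the test, and at 24 h all 4 were lower at 500 nM. The median interaction over members was -0.27, against -0.05 over all genes. Without the library of IL-2 at 500 nM and 24 h 0 members passed. Of the 4 h libraries, 2 members passed without 1 nM IL-2 (1 lower, 1 higher), 2 without 1 nM IL-15 and 1 without 500 nM IL-15.

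Averaged over both times, 500 nM lowered few members singly in the model without a dose by time term. Those lower were Rpl19 (-0.69 ± 0.19), Rplp2 (-0.66 ± 0.18), Rps16 (-0.64 ± 0.18), Rps7 (-0.61 ± 0.18), Rpl12 (-0.60 ± 0.17) and Rplp1 (-0.55 ± 0.15), and Rps27l was higher (0.91 ± 0.24). Rpl12 forms the base of the stalk that Rplp1 and Rplp2 belong to, and Rps7 is known to bind Mdm2. By edgeR's test the adjusted p-values lay between 0.0354 for Rps27l and 0.0492 for Rps7. These 6 lower and 1 higher members stand beside 8.47% of all genes lower and 7.63% higher, which for lower members is a share near the background. The median was -0.34 against -0.03 over all genes, and 70 of 82 members had a negative value, as had 6939 of 13479 genes. All 4 libraries at 500 nM lay below all 4 at 1 nM for 12 members, where 10.3% of genes did so, and above them for 0 members, against 8.55%. The call rests on single libraries. It came to 0 when any 1 of the 4 libraries taken at 24 h was left out, and to 1 without the 4 h library of 1 nM IL-15. With a dose by time term in the model more members were called, as given with the alternatives at the end.

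Time was compared over both doses and cytokines. Adding a dose by time term to the model raised the number of members called, as given with the alternatives at the end. Without that term 6 members were lower at 24 h than at 4 h and 0 higher, where 2.62% of all genes were lower and 2.69% higher. They were Rps23 (-0.97 ± 0.21), a protein of the decoding centre, Rpl30 (-0.92 ± 0.15), Rpl35 (-0.74 ± 0.17), which lies at the exit tunnel, Rpl23 (-0.73 ± 0.16), Rpl15 (-0.72 ± 0.16) and Rplp1 (-0.64 ± 0.15). By edgeR's test the adjusted p was 0.0144 for Rpl30 and lay between 0.0377 and 0.0466 for the others. Rpl30 measured 120 RPKM with IL-15 and 103 with IL-2 at 500 nM and 24 h and 142 with IL-15 and 154 with IL-2 at 1 nM and 24 h, against 4 h values of 202 and 203 RPKM for the high dose and 223 and 306 RPKM for the low dose, in the same order. Every 24 h value of Rpl30 lay below every 4 h value, and the untreated value of 225 RPKM lay within the 4 h range. Over all members 9 had all 24 h libraries below all 4 h libraries, where 5.73% of genes did so.

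The time difference did not hold in each pair of libraries. The median of 24 h minus 4 h was -0.45 with IL-15 at 500 nM, -0.39 with IL-2 at 500 nM, -0.36 with IL-15 at 1 nM and 0.02 with IL-2 at 1 nM (log2 CPM), and over the fit -0.31, against 0.00 over all genes. Without a library the number called was 0 for each IL-2 library at 4 h and each 500 nM library at 24 h, 1 for the 4 h library of 500 nM IL-15 and 2 for the 24 h library of 1 nM IL-2.

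No member differed detectably between IL-15 and IL-2. By edgeR's test 0 members passed, as did 0 of 13479 genes (0%), with 4 members at an unadjusted p under 0.05 and 0 by DESeq2 or limma-voom. Over all genes 125 had an unadjusted p under 0.05 by edgeR, in a model whose spread includes any dose by time effect. The median of IL-15 over IL-2 was 0.09, against 0.00 over all genes. Pair by pair the median difference was -0.03 at each dose at 24 h, 0.03 for 500 nM at 4 h and 0.27 for 1 nM at 4 h (log2 CPM). In the last pair 66 members were higher with IL-15, and 19.5% of members against 48.4% of all genes were lower. That IL-15 library was the highest of 9 for 36 members and the lowest for 0, which was not counted over all genes. The largest single values were those of Rps27 (0.93 ± 0.35), Rps29 (0.86 ± 0.29) and Rpl38 (0.80 ± 0.35), all with an adjusted p of 1 by edgeR and all under 400 bases.

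Against untreated cells no member passed at either time in the model without a dose by time term. After 4 h the median was -0.01, against 0.07 over all genes, with 0 members called by edgeR, DESeq2 or limma-voom and 1 at an unadjusted p under 0.05, where 0.883% of all genes were higher and 1.54% lower. After 24 h the median was -0.37, against 0.06 over all genes, with 0 called by edgeR, 24 at an unadjusted p under 0.05, 6 by DESeq2 and 1 by limma-voom, where 0.0668% of genes were higher and 0.275% lower. Rpl35a, a large subunit protein, stood lowest at -1.79 ± 0.38 (edgeR adjusted p = 0.0893). It measured 19.1 RPKM with IL-15 and 18.8 with IL-2 at 500 nM and 24 h, against 30.8 with IL-15 and 27.4 with IL-2 at the low dose. The 4 h values were 45.1 and 37.1 RPKM at the high dose and 45.8 and 22.3 RPKM at the low dose, against 75.5 RPKM untreated. Every treated library of Rpl35a lay below the untreated one. Only 1 untreated library exists, so its own spread is taken from the treated ones. With a dose by time term in the model members were called at both times, more of them at 24 h, as given with the alternatives at the end.

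Other genes of the translation machinery moved in other directions at 24 h. Of 75 mitochondrial ribosomal protein genes tested, 37 were higher and 1 lower at 500 nM, with a median of 0.74. Of 18 initiation factors outside eIF3, 11 were higher and 1 lower (median 0.68), among them Eif2s1, the alpha subunit of eIF2 (1.60 ± 0.19), the cap-binding protein gene Eif4e (1.55 ± 0.27) and the helicase gene Eif4a1 (1.27 ± 0.23), while its paralog Eif4a2 was lower (-0.84 ± 0.18). Of 13 eIF3 subunits 6 were higher, led by Eif3b (1.67 ± 0.18), and Eif3f (-0.85 ± 0.19) and Eif3h (-0.49 ± 0.17) were lower (median 0.51). The mRNAs of Eif3f and Eif3h are known as TOP mRNAs in human cells. Of 8 chaperones and importers of ribosomal proteins 4 were higher and 0 lower (median 0.91). They were Heatr3 (1.72 ± 0.30), Grwd1, a chaperone of Rpl3 (1.67 ± 0.26), Tsr2, known in yeast to carry Rps26 (1.16 ± 0.24), and Ltv1, a small subunit assembly factor (1.13 ± 0.19). By edgeR's test the adjusted p-values of the genes named here lay under that of Eif3h at 0.0460, and 15.6% of all genes were called in each direction.

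Other genes known for TOP mRNAs were split. Of 11 tested, 3 were lower and 3 higher at 24 h, with a median of -0.24. Among the lower ones, Fau, which encodes a fusion of a ubiquitin-like protein with a small subunit protein, fell by 1.14 ± 0.17. Fau measured 951 RPKM with IL-15 and 971 with IL-2 at 500 nM and 24 h, against 2020.0 with IL-15 and 2221 with IL-2 at 1 nM and 24 h, and 1402 RPKM untreated. Tpt1, the translationally controlled tumour protein gene, fell by 1.07 ± 0.16. It measured 7304 RPKM with IL-15 and 8114 with IL-2 at 500 nM and 24 h, against 17180.0 with IL-15 and 15220.0 with IL-2 at 1 nM and 24 h, and 22010.0 RPKM untreated. Both Tpt1 and Fau had doses that did not overlap at 24 h. Higher were Hnrnpa1 (0.99 ± 0.25), an RNA-binding protein gene, Nap1l1 (0.77 ± 0.18), a histone chaperone gene, and the nucleolar protein gene Npm1 (0.69 ± 0.18). Hnrnpa1 had the lowest levels of the 11. At 24 h it measured 9.24 RPKM with IL-15 and 11.2 with IL-2 at 500 nM, against 4.56 with IL-15 and 5.76 with IL-2 at 1 nM. Tests were by edgeR, with adjusted p between 4.02e-04 for Fau and 0.0126 for Npm1.

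Genes listed as elongation factors and as regulators made up the rest. Of 7 genes listed as elongation factors, Eef2, which moves the ribosome along the mRNA, was lower (-0.53 ± 0.17). Higher were Eif5a (1.501 ± 0.32) and Eef1e1 (1.87 ± 0.37), which is grouped here by its symbol only. Eef1a1, which delivers tRNA, stood at -0.34 ± 0.15 and did not pass (edgeR adjusted p = 0.108). Of 10 genes listed under regulators of ribosomal protein mRNA translation, 3 were higher at 24 h, Myc (1.36 ± 0.20), Larp1 (1.33 ± 0.19) and Eif4ebp1 (0.93 ± 0.27), and 0 lower. At 4 h, where no ribosomal protein gene passed, Myc (1.81 ± 0.20) and Larp1 (1.30 ± 0.19) were already higher and Rptor, a subunit of mTORC1, was lower (-0.69 ± 0.18) by edgeR's test.

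**Figure D5:**
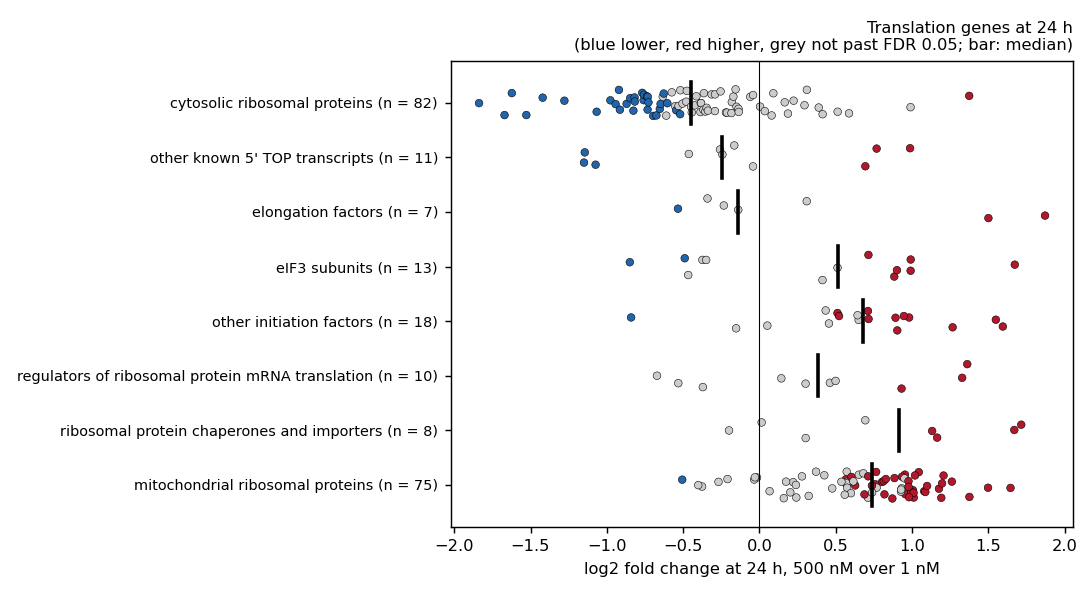
Log2 fold change of 500 nM over 1 nM at 24 h (x axis) for each gene of 8 groups of the translation machinery (y axis), with a bar at the median of each group. The median is -0.45 for cytosolic ribosomal proteins and 0.74 for mitochondrial ribosomal proteins.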

How the data were processed

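RNA of 9 libraries was sequenced after 12, 9 and 17 cycles of PCR from 2.5 ng, per the labels' protocols. The submitters' processing notes name CASAVA 1.8, Bowtie 0.12.4 and the genome build mm8. Whether counting used strand, and how reads with several matches were treated, is not given in the sources used here. Each table the authors deposited holds raw read counts per RefSeq transcript, exon lengths and RPKM, per the file headers. From the values, the deposited RPKM equals count over exon length times 1 constant per library. Only counts were tested, and RPKM was used for levels.

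Counts of 1 transcript per symbol were scaled by TMM, filtered by filterByExpr (minimum count 10, total 15) and fitted with edgeR 4.0.16 (quasi-likelihood, legacy deviances) in R 4.3.3. The design had cytokine, dose and time plus an untreated term over 9 libraries, with 4 residual degrees of freedom. A dose by time term left 3 and gave dose within each time. Standard errors are the fold change over the square root of F. P-values were adjusted by Benjamini-Hochberg over all 13479 genes. Alternatives were DESeq2 1.42.0, limma-voom 3.58.1, other scalings, filters, transcripts and model terms, each library left out, and a removed length trend. Medians of single pairs are differences of log2 CPM with a prior count of 1. The fitting code was tested on simulated data.

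Named genes were the 6 largest called rises and falls per comparison (the 3 largest as values where fewer than 3 passed), the 5 highest and 5 lowest by mean RPKM, stalk genes, paralogs with partners, members next to the minimum and up to 4 called genes per list. Genes named beyond this rule (Rpl5, Rpl11, Rps6, Rps9, Rpl37, Rpl39, Rpl15, Rps12, Rps2, Rps27a, Rpl10a, Rpl31, Eef1a1) were chosen after their values were seen. Some genes that the rule would name are not reported here. The members and lists were chosen with earlier results of these data known. Starts and their sequences come from RefSeq on GRCm38.p6, where 60 of 82 members had an entry. All members matched a GENCODE M21 transcript by RefSeq identifier, but its length could differ from that of the counted transcript. For Rps20 it held 3675 stretches of 32 bases against 502 exon bases.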

Additional observations from a re-analysis of the deposited data

Results flagged for a closer look

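The dose effect differed between 24 h and 4 h for 4 ribosomal protein genes by the test of the interaction itself. These are 4.88% of the members, near the 4.76% of all genes called lower in that test, so the number called says nothing particular about the members. Rps28 had -2.07 ± 0.43, Rpl37a -1.67 ± 0.37, Rps27 -1.64 ± 0.39 and Rps21 -1.54 ± 0.43 (log2, SE; edgeR adjusted p = 0.0143, 0.0184, 0.0248 and 0.0432). Within each cytokine, Rps28 and Rps27 were lower at 500 nM than at 1 nM at 24 h and higher at 4 h. All 4 interactions lost the call without the library of IL-2 at 500 nM and 24 h, where each of these genes had its lowest level.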

How the results depend on the processing

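No named called member changed direction under the alternatives run, and the median at 24 h stayed negative under each. The numbers of members called varied. They are given without the share of all genes called under the same setting, so they cannot be read against a background. With DESeq2 they were 20 for dose, 18 for time, 6 for 24 h against untreated, 10 for dose by time and 1 for dose at 4 h, and with limma-voom 13 for dose, 10 for time and 1 for 24 h against untreated. Median-of-ratios factors gave 4 for dose, and library totals alone gave 18 for dose, 7 for dose by time and 4 for dose at 4 h. No filter gave 3 for dose. With a dose by time term in the model the numbers were 34 for dose, 26 for time, 1 for 4 h and 18 for 24 h against untreated, and with all 3 interactions of factor pairs 10 for dose by time and 1 for dose at 4 h. Removing each library's trend with exon length, an alternative chosen after seeing the data, gave 19 for dose, 15 for time, 10 for dose by time, 2 for dose at 4 h and 51 for dose at 24 h, with all 31 lower members among them. Leaving out 1 library at a time gave 0 to 8 for dose, 0 to 6 for time, 0 to 5 for dose by time, 0 to 7 for dose at 4 h, 10 to 39 for dose at 24 h, and 0 throughout for IL-15 against IL-2 and for both times against untreated. The median at 24 h stayed between -0.52 and -0.40 with 1 library left out and was -0.68 with the length trend removed. The other 98 counts stayed within 1.5 times the number reported, and in 114 cases a single called member kept its direction but lost the call. The causes were not tested. No paired analysis was possible because no condition has a second library and the labels give no replicate numbers. With 1 library per condition, 4 or fewer residual degrees of freedom set the precision. Depth limits Rpl39l, whose mean was 39.3 counts.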
